A study of Mus musculus with 12 samples.

Results

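Nuclear genes for the subunits of the mitochondrial respiratory chain and ATP synthase were measured in nascent and total RNA of SIM-A9 cells, an established mouse microglial line. The set held every protein-coding gene whose symbol starts with Ndufa, Ndufb, Ndufc, Ndufs, Ndufv, Sdha to Sdhd, Uqcr, Cox4 to Cox8 or Atp5 and whose mean was 50 or more total reads over the 12 libraries. It comprised 90 of the 30994 genes in the tables. Complex I contributed 43 members, complex II 8, complex III 8, complex IV 14 and complex V 17. The prefixes also admit genes that are not subunits: 11 members are assembly factors (named Ndufaf or Sdhaf), Atp5s is a factor coupled to complex V, and Cox7a2l is found in supercomplexes. Ndufa4 was counted in complex IV, where its protein sits. Cox7a1 (65.8 reads) and Ndufaf5 (79.9 reads) lay just inside the minimum, and Ndufaf6 (46.7 reads) lay just outside it.

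Cells of all 4 groups received 10 µM polymyxin B for 1 h, then 10 µM C13 or its vehicle DMSO for 1 h, then 5 µg/mL of TDP-43 aggregates or sham aggregates for 2.5 h. C13 is named a MOK inhibitor in the study's title, and TDP-43 is an RNA-binding protein that forms deposits in motor neuron disease. At that point 4-thiouridine, a uridine analogue that marks newly made RNA, was added to 100 µM for 90 min, so that cells spent 4 h with aggregates. The groups were C13 with TDP-43, C13 with sham, DMSO with TDP-43 and DMSO with sham, each with 3 libraries labelled as biological replicates of 1 cell line of C57BL/6 origin. The p-values measure the spread between these cultures.

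The respiratory chain passes electrons from NADH (complex I) and succinate (complex II) through ubiquinone to complex III, from there by cytochrome c to complex IV and oxygen, and complex V uses the resulting proton gradient to make ATP. Most subunits are encoded in the nucleus, and a smaller set by mitochondrial DNA. The mitochondrially encoded subunits were not analysed here. Nuclear genes of the chain are known targets of NRF1, of the ETS factor GABP, of ERRα and of YY1, with coactivators of the PGC-1 family. In microglia, the balance between oxidative phosphorylation and glycolysis is known to shift with inflammatory activation.

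Promoter windows were read because binding sites of these factors are a known common feature of the genes, which the symbol rule did not use. RefSeq windows of build GRCm38.p6, running 250 bases before to 50 bases after the gene start, matched 75 of the 90 members by symbol. The 75 members had 80 windows, and the shares below are of genes, not of windows. The NRF1 motif was spelled GCGCA and GCGC with any 1 base between them, and searched on both strands as the other motifs were. It occurred in 21 of 75 members (28.0%), against 13.5% of expressed protein-coding genes and 5.19% of all genes with a window. The YY1 motif AANATGGCG occurred in 12 members (16%), against 7.08% of expressed genes. The ERRα motif TGACCTTG was found in 4 members (5.33%), against 1.23% of expressed genes. The short ETS core CGGAAG was found in 35 members (46.7%), against 39.4% of expressed genes, and its longer form CCGGAAGT in 6.67%, against 10.9%. A TATA box (TATAAA) was present in 8.0% of members, against 8.11% of expressed genes and 15.7% of all genes with a window. These shares describe letters in a window and were not tested. The 30-base stretches around the NRF1 match are printed 5′ to 3′ for 8 members, at least 1 from each complex, with the match in capitals.
Ndufa5 (chr6:24527697-24527726, minus strand): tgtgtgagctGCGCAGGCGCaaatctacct
Ndufa6 (chr15:82354249-82354278, minus strand): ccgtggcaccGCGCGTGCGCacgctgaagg
Ndufs5 (chr4:123718265-123718294, minus strand): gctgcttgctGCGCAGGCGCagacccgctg
Sdha (chr13:74350319-74350348, minus strand): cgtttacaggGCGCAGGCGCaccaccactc
Uqcrc1 (chr9:108936643-108936672, plus strand): cttccttacaGCGCTTGCGCctcagactcc
Cox6a1 (chr5:115349101-115349130, minus strand): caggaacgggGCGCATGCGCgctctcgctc
Atp5g3 (chr2:73911295-73911324, minus strand): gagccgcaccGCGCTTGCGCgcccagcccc
Atp5o (chr16:91931602-91931631, minus strand): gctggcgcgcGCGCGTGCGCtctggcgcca

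The whole 300-base windows are shown for Sdhb, which had the highest nascent share among members with at least 100 nascent reads per library on average, and for Atp5o, which had an unadjusted p under 0.05 between aggregates under both drugs in nascent RNA. Capitals mark the ETS core in Sdhb and the NRF1 match in Atp5o.
Sdhb (chr4:140961021-140961320, plus strand): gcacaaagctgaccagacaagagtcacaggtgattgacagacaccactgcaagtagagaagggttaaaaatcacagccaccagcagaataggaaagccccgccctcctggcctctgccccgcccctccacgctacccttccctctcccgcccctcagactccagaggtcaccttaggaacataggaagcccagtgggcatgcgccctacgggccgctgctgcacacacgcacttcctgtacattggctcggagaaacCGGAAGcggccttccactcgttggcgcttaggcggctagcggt
Atp5o (chr16:91931581-91931880, minus strand): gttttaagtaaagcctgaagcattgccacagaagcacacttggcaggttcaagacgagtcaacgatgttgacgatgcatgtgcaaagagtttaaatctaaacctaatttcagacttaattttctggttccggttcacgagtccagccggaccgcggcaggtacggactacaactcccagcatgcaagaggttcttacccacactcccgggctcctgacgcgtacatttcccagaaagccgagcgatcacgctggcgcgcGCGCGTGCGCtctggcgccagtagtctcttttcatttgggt

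Total reads per library ranged from 17436397 to 41779882 and nascent reads from 552042 to 2722812, and members took 1.76% to 2.53% of total reads. On the first principal component of all genes, replicate 3 of DMSO with TDP-43 and replicate 3 of C13 with sham stood apart from the other 10 libraries in both tables. The main results below are also given without this pair. Of 10 microglial markers, 8 had a mean of 50 or more reads, while Tmem119, C1qa and P2ry12, markers of resting microglia in tissue, had 0 reads in at least 1 library. Defining markers of astrocytes, neurons and fibroblasts were at or near 0, and of those of oligodendrocytes only Mbp was detected (4.12 to 46.4 CPM). Mok, the gene of the kinase that C13 is named to inhibit, had 0 to 294 total reads. Its RNA does not check the action of an inhibitor. Levels are given as CPM, counts scaled to a common library size, with library sizes adjusted by TMM. Libraries were made from mRNA 3′ ends, where each transcript gives reads from 1 end, so no correction for length was made. In bulk RNA, fewer cells and less RNA per cell cannot be told apart.

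Total RNA levels of members spanned from 2.20 CPM (Cox7a1) to 2363 CPM (Atp5a1, the catalytic-head subunit α of ATP synthase). Complex V was the most abundant by summed level. Its 17 members summed to 8971 ± 244 CPM in C13 with TDP-43, 7838 ± 1049 CPM in C13 with sham, 8007 ± 355 CPM in DMSO with TDP-43 and 8525 ± 481 CPM in DMSO with sham (SD, n = 3 each). After Atp5a1 came Atp5g3 (1820 CPM), 1 of 3 genes for the membrane ring subunit c, the others being Atp5g1 (397.7 CPM) and Atp5g2 (360.0 CPM). Complex IV members summed to 6638 ± 263, 5250 ± 1481, 5505 ± 405 and 6167 ± 448 CPM over the same groups in the same order. Its highest members were Cox6b1 (1006 CPM), Cox6c (928.3 CPM), Cox8a (924.5 CPM) and Cox7c (871.9 CPM).

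Complex I, with 43 members, summed to 5895 ± 638, 5432 ± 1303, 4845 ± 250 and 5714 ± 485 CPM in C13 with TDP-43, C13 with sham, DMSO with TDP-43 and DMSO with sham. Its members ran from 2.62 CPM (the assembly factor Ndufaf5) to 712.4 CPM (Ndufb3, an accessory subunit of the membrane arm), with Ndufa6 at 511.5 CPM. Of the 7 core subunits measured, Ndufs3 was lowest (37.7 CPM). Complex III was led by Uqcrq (535.4 CPM) and the Rieske iron-sulfur protein Uqcrfs1 (473.7 CPM), with Uqcr11 lowest (22.9 CPM). In complex II the membrane anchor Sdhc (286.9 CPM) and the flavoprotein Sdha (268.9 CPM) exceeded the iron-sulfur subunit Sdhb (179.5 CPM), and the second anchor Sdhd had 9.19 CPM. The reads of 23 members were whole multiples of 2 or more in all 24 values. Atp5a1, Atp5g3, Ndufs5, Ndufa5 and Ndufv3, which are named below or above, are among them. So are Cox7a2l, Cox7c, Cox4i1, Atp5g1 and Ndufb6. How reads that match several places were counted is not given in the sources used here, and the levels of genes with near-identical copies are uncertain. Ndufa4 (222.8 CPM) was far above its hypoxia-linked relative Ndufa4l2, which had 0 reads.

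Tissue-restricted forms of complex IV were scarce or absent. Cox4i2, Cox6b2, Cox7b2, Cox8b and Cox8c, forms known from lung, testis or striated muscle, had 0 total reads in all 12 libraries. The general forms Cox4i1 (279.0 CPM), Cox6a1 (203.3 CPM), Cox7a2 (198.6 CPM) and Cox8a were measured instead. The muscle forms Cox6a2 and Cox7a1 averaged 6.34 and 2.20 CPM. Cox7a1 had 144, 4 and 114 reads in C13 with TDP-43 and 72, 32 and 60 reads in C13 with sham. The DMSO with TDP-43 libraries held 2, 88 and 0 reads, and those of DMSO with sham 106, 134 and 34 reads. Values within a group thus differed as much as values between groups. Cox7a1 had no nascent read in any library.

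Replicates of a group agreed better for members than for most genes. The within-group SD of log2 levels had a median of 0.333 over the 90 members, against 0.44 over the 11827 genes tested in total RNA. The sets were not matched for level: members had a mean of 50 or more total reads, which 9933 genes reached. Sdha varied least (0.149), and Sdhd most (1.37). In nascent RNA the medians were 1.08 for 81 members and 1.49 for 7078 genes. The C13 with sham libraries were an exception. Replicate 2 of that group gave the highest total level for 45 of 90 members (13.2% of all genes), and replicate 3 gave the lowest for 33 members (14.3% of all genes). The cytosolic ribosomal protein genes also peaked there, with 24 of 80 highest in replicate 2.

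**Figure D1:**
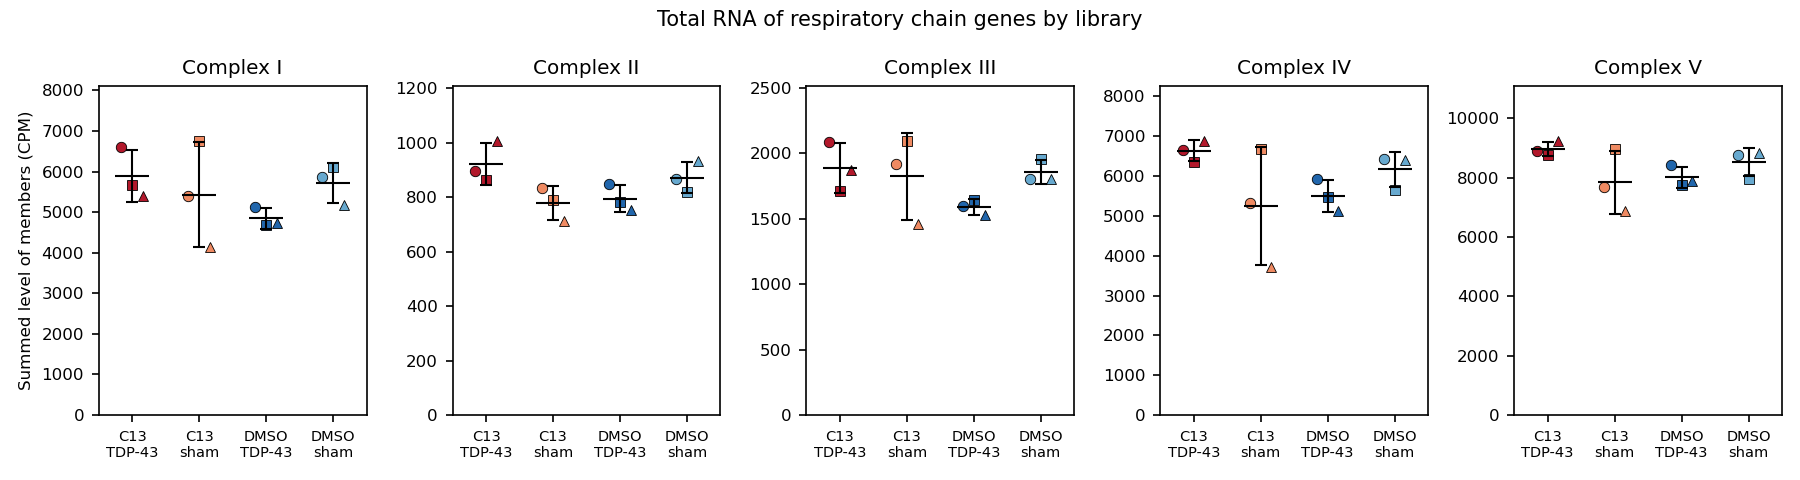
Summed total RNA level (CPM, vertical axis from 0) of the members of each complex in each library. Circles, squares and triangles are replicates 1, 2 and 3, and bars give the mean ± SD (n = 3). The 3 libraries of C13 with TDP-43 lie above those of DMSO with TDP-43 in all 5 panels, and in complex IV the libraries of C13 with sham run from 3728 to 6686 CPM.

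Nascent reads were a smaller part of member reads than of reads overall. Nascent reads were 2.20% of all total reads of members, against 3.24% for the 9933 genes with a mean of 50 or more. The share was lower for members in 12 of 12 libraries, and by the median gene in 8 of 12 libraries. It ran from 1.17% to 6.34% over libraries for members and from 1.88% to 7.11% for all genes. Cytosolic ribosomal protein genes stood at 2.41% and mitochondrial ribosomal protein genes at 3.30%. No library without 4-thiouridine was measured, so the share that unlabelled RNA would give is unknown. A read counts as nascent by T-to-C changes, which need T bases in the read. The transcript end held 36.3% T in Ndufv2 and 15.7% in Ndufv3, and the part of T content in the shares was not tested.

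By complex, the share was 2.58% in complex I, 3.46% in II, 2.56% in III, 1.73% in IV and 2.06% in V. Members of C13 with TDP-43 had 1.56 ± 0.23%, C13 with sham 1.82 ± 0.77%, DMSO with TDP-43 1.84 ± 0.51% and DMSO with sham 3.42 ± 2.57% (SD, n = 3 each). The last group was raised by replicate 2, in which 7.11% of all reads were nascent. Among all genes these groups had 2.91 ± 0.43%, 2.65 ± 0.68%, 2.77 ± 0.61% and 4.42 ± 2.35%, so that DMSO with sham was highest in both sets, while the lowest was C13 with TDP-43 among members and C13 with sham among all genes.

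Sdhb stood out among members, with 8.83% of its reads nascent. Its share was 9.17%, 10.1% and 7.34% in C13 with TDP-43, 8.90%, 8.87% and 6.58% in C13 with sham. With DMSO it was 8.38%, 8.71% and 6.32% under TDP-43, against 7.39%, 13.6% and 8.38% under sham. Every library was thus above the members' pooled share, and the groups overlapped. Its partners Sdhc (1.35%) and Sdha (2.24%) had lower shares. The subunits of complex II thus spanned more than the 5 complexes did. Other high shares were those of Ndufv2, an iron-sulfur core subunit of the NADH-binding module (5.69%), Ndufa5 (5.42%) and Atp5g1 (5.04%, against 2.11% for Atp5g3 and 2.41% for Atp5g2). Ndufaf5 reached 14.6%, from a mean of 11.7 nascent reads. The lowest shares with at least 10 nascent reads per library were those of Atp5c1 (1.22%), Sdhc, Cox6b1 (1.35%) and Cox8a (1.40%). Of the 90 members, 65 had nascent reads in all 12 libraries.

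**Figure D2:**
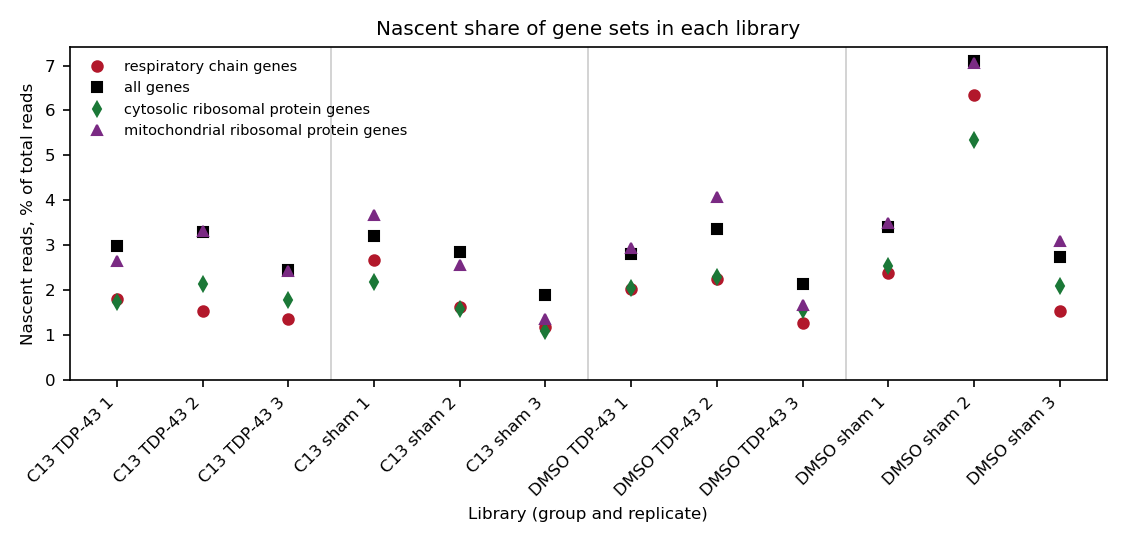
Nascent reads as percent of total reads (vertical axis) in each of 12 libraries, ordered by group and replicate, for the respiratory chain genes, all genes with a mean of 50 or more, and cytosolic and mitochondrial ribosomal protein genes. The respiratory chain genes lie below all genes in 12 of 12 libraries, and replicate 2 of DMSO with sham is highest at 6.34% and 7.11%.

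None of the 90 members passed the threshold of an adjusted p of 0.05 in any of 7 comparisons in either table (edgeR's quasi-likelihood test, Benjamini-Hochberg adjustment over all genes). Nearly no gene did: the share of genes called was 0.0% in 13 of 14 comparisons and 0.0141% (1 gene) for nascent RNA in TDP-43 against sham averaged over drugs. DESeq2 called 7 to 108 genes per comparison and 1 member in 5 of them, Atp5e in 3 nascent and Ndufb3 in 2 total comparisons. What follows describes sizes and directions, read against the share of all genes that behave alike, and no value below passed the adjusted test. Shares of all genes beside counts at an unadjusted p are from the fit of 12 libraries. Such counts from fits without some libraries have no matching share. They show how far a count moved, not whether members differed from all genes.

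In total RNA, members were higher in C13 with TDP-43 than in DMSO with TDP-43. The log2 fold change had a median of 0.13 over the 90 members, against -0.00 over all genes, and was above 0 for 60 members (66.7%), against 49.6% of all genes. An unadjusted p under 0.05 was reached by 9 members higher and 0 lower, where 3.48% and 2.5% of all genes were higher and lower. The 3 libraries with C13 lay above the 3 with DMSO for 19 members (21.1%), against 6.97% of all genes, and below them for 2 members (2.22%), Ndufv1 and Atp5f1, against 6.48% of all genes. The same count was 3 of 80 cytosolic ribosomal protein genes (3.75%) and 7 of 78 mitochondrial ones (8.97%). Members varied less between replicates than all genes tested, without matching for level, and the part of this in the count was not tested.

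Summed by complex, the 2 groups with TDP-43 did not overlap in any of 5 complexes, and C13 was the higher each time. Complex I had 6616, 5664 and 5404 CPM with C13, against 5132, 4678 and 4726 CPM with DMSO. Complex IV had 6665, 6362 and 6885 CPM with C13, against 5928, 5466 and 5121 CPM with DMSO. The ratio of means was 1.22 in complex I, 1.16 in II, 1.19 in III, 1.21 in IV and 1.12 in V. Sums weigh abundant members most. The log2 fold change was above 0 for 26 of 43 members in complex I (median 0.08) and 9 of 17 in V (median 0.01). It was above 0 for 7 of 8 in II, 7 of 8 in III and 11 of 14 in IV. Atp5a1, the highest member of complex V, overlapped between the groups, at 2342, 3075 and 3493 CPM with C13, against 2686, 2052 and 2198 CPM with DMSO. With 3 libraries against 3, an exact permutation test cannot give a two-sided p under 0.1. Without the pair of libraries that stood apart, the ratios were 1.2, 1.13, 1.17, 1.17 and 1.11. Leaving out 1 library moved the count of 19 members to between 20 and 29, the highest without replicate 3 of C13 with TDP-43, where 12.9% of all genes did so. The median log2 fold change was 0.03 without replicate 1 of C13 with TDP-43, and otherwise lay between 0.12 and 0.20. The 9 members under an unadjusted p of 0.05 became 3 without that library or without replicate 3 of DMSO with TDP-43, and 4 without replicate 2 of DMSO with TDP-43. Reads of mitochondrial ribosomal RNA were 1.29% to 1.54% of reads in C13 with TDP-43, against 1.71% to 2.52% in DMSO with TDP-43. The part of this difference in the result was not tested.

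The members with the smallest p in this comparison belonged mainly to complex I. Ndufs5, an accessory subunit on the intermembrane-space side (chr4:123712710-123718202, GRCm38), had 113.4, 92.1 and 97.3 CPM in C13 with TDP-43, against 65.0, 46.3 and 66.5 CPM in DMSO with TDP-43. The groups did not overlap, and the log2 fold change was 0.77 (SE 0.28, unadjusted p = 0.0151, adjusted p = 0.833, edgeR). All reads of Ndufs5 were multiples of 3, so its level is uncertain. Ndufb3 (chr1:58586384-58595964) had 835.7, 1029 and 864.0 CPM, against 759.0, 450.0 and 560.1 CPM, a log2 fold change of 0.63 (SE 0.24). Of complex IV, Cox7b, a small membrane subunit (chrX:106015700-106022450), had 281.5, 213.3 and 189.9 CPM, against 128.9, 147.8 and 145.6 CPM (log2 fold change 0.70, SE 0.25). The lowest library with C13 was thus above the highest with DMSO in each of these genes. Without the libraries that stood apart, the log2 fold changes were 0.87, 0.60 and 0.74.

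Other members under an unadjusted p of 0.05 here were Ndufa5 (log2 fold change 0.74), Ndufv3 (0.65), Ndufb5 (0.51), Ndufa6 (0.47) and the supercomplex factor Cox7a2l (0.49). Ndufb2 had the largest value among these 9 members, 1.61 (SE 0.57), from 66.3, 69.4 and 149.5 CPM in C13 with TDP-43, against 49.5, 30.7 and 13.1 CPM in DMSO with TDP-43. It overlaps other annotated genes on both strands, so its reads may not all be its own. Among the complex III subunits, Uqcr10, Uqcrb, Uqcrc2 and Uqcrfs1 did not overlap between the groups. Uqcrb had 192.2, 147.2 and 128.1 CPM with C13, against 122.0, 119.0 and 122.1 CPM with DMSO. Of complex V, Atp5l (841.5, 785.9 and 762.0 CPM with C13, 637.4, 491.9 and 646.9 CPM with DMSO) and Atp5mpl did not overlap either. Sdha alone did so among complex II subunits, at 314.8, 271.8 and 312.7 CPM with C13, against 259.1, 247.4 and 255.9 CPM with DMSO.

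**Figure D3:**
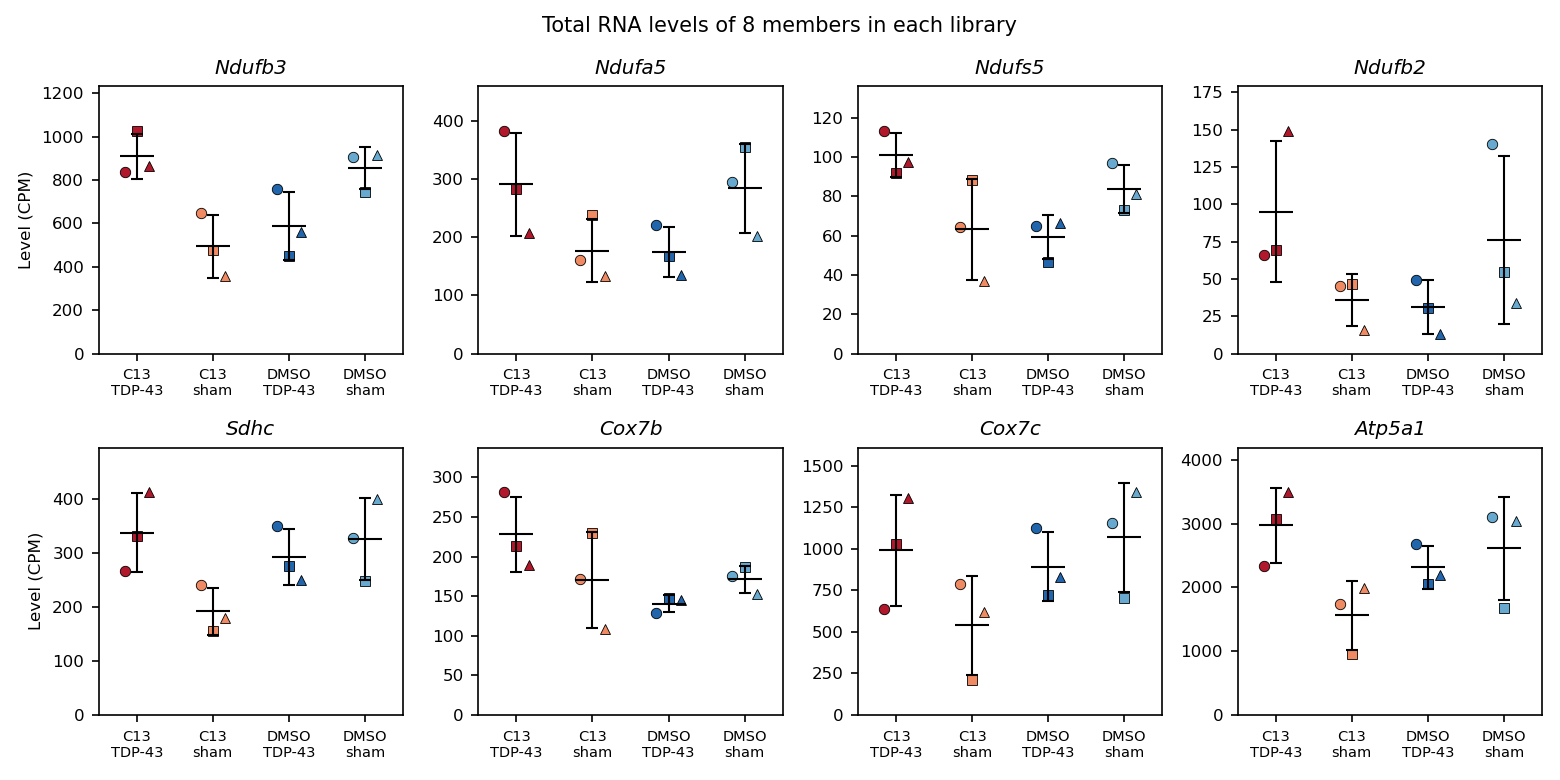
Total RNA level (CPM, vertical axes from 0) of Ndufb3, Ndufa5, Ndufs5, Ndufb2, Sdhc, Cox7b, Cox7c and Atp5a1 in each library, with mean ± SD (n = 3 per group) and replicates 1, 2 and 3 as circles, squares and triangles. For Ndufb3, C13 with TDP-43 averages 909.5 CPM, against 494.6 CPM in C13 with sham and 589.7 CPM in DMSO with TDP-43.

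With sham aggregates, C13 did not move the members to one side. Total log2 fold changes of C13 against DMSO had a median of 0.00 over the members, against -0.01 over all genes, with 45 members above 0 and 45 below. An unadjusted p under 0.05 was reached by 0 members higher and 5 lower, where 2.05% of all genes were higher and 4.05% lower. Groups did not overlap for 2 members higher (4.41% of all genes), Sdhaf3 and Atp5o, and 3 lower (5.72% of all genes), Ndufb3, Ndufs3 and Sdhc. The 5 lower members were Ndufb3, Sdhc, Atp5a1, Cox7c and Ndufa5. Ndufb3 had 647.9, 476.3 and 359.5 CPM in C13 with sham, against 908.9, 744.4 and 914.6 CPM in DMSO with sham, with a log2 fold change of -0.79 (SE 0.24, unadjusted p = 0.00435, adjusted p = 0.681, edgeR). The succinate dehydrogenase anchor Sdhc (chr1:171127165-171150603) had 240.3, 155.1 and 180.4 CPM, against 328.2, 248.9 and 400.7 CPM (log2 fold change -0.76, SE 0.24). Both genes were lower in every library with C13. For Atp5a1 the lowest library was replicate 2 of C13 with sham, at 950.0 CPM. The median of the members turned to 0.18 without replicate 3 of C13 with sham and to -0.18 without its replicate 2. The 5 lower members became 9 without that replicate 2 and 2 without replicate 1 of DMSO with sham.

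With DMSO, most members were lower in TDP-43 than in sham. The comparison shares the DMSO with TDP-43 libraries with that of C13 against DMSO under TDP-43, and the 2 are not independent. The total log2 fold change had a median of -0.17 over the members, against -0.02 over all genes, and 66 members (73.3%) were below 0, against 51.5% of all genes. Complex III lay below 0 in 8 of 8 members, complex I in 32 of 43. An unadjusted p under 0.05 was reached by 5 members lower (2.68% of all genes) and by 0 higher (1.68% of all genes). Groups did not overlap for 12 members lower (13.3%), against 6.41% of all genes, and for 2 higher (2.22%), Ndufaf4 and Atp5d, against 5.49%. Of the ribosomal protein sets, 3 of 80 cytosolic and 9 of 78 mitochondrial genes (11.5%) were lower without overlap. Their fold changes nevertheless lay to the same side: the median was -0.23 for cytosolic ribosomal protein genes, of which 7.5% were above 0, and -0.12 for mitochondrial ones, of which 30.8% were above 0, against 26.7% of the members. The shift below 0 was thus shared with these sets. Leaving out 1 library gave 14 to 31 members lower, the most without replicate 3 of DMSO with sham, where 12.4% of all genes were, and over 1.5 times 12 also without replicate 1 of DMSO with TDP-43 (20) or replicate 2 of DMSO with sham (19). The median was -0.06 without replicate 2 of DMSO with sham.

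By complex, DMSO with TDP-43 lay below DMSO with sham without overlap in complexes I and III. Complex III had 1592, 1644 and 1524 CPM with TDP-43, against 1800, 1958 and 1801 CPM with sham, a ratio of means of 0.857. Complex I gave a ratio of 0.848, complex II 0.911, complex IV 0.893 and complex V 0.939. Without the libraries that stood apart, the ratios of complexes I and III were 0.858 and 0.874. Ndufa10, an accessory subunit of the membrane arm, had 179.6, 145.5 and 115.9 CPM with TDP-43, against 264.8, 228.6 and 194.0 CPM with sham (log2 fold change -0.64, SE 0.24, unadjusted p = 0.0184, adjusted p = 0.999, edgeR). Ndufa5 (-0.70), Ndufb2 (-1.29), Ndufb3 (-0.54) and Cox7a2l (-0.47) were the others under an unadjusted p of 0.05. None of these 5 stayed under it without replicate 3 of DMSO with TDP-43 or without replicate 1 of DMSO with sham. The count was 1 without the pair of libraries that stood apart, 3 without replicate 2 of DMSO with TDP-43 or replicate 3 of DMSO with sham, and 9 without replicate 3 of C13 with sham, which enters through the shared spread. Mitochondrial ribosomal RNA was 1.71% to 2.52% of reads with TDP-43, against 1.17% to 1.49% with sham, and its part in the result was not tested.

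With C13, TDP-43 against sham gave members on both sides. The median total log2 fold change was -0.04, against -0.01 for all genes, and 42 members were above 0 and 48 below. It was 0.13 without replicate 2 of C13 with sham and -0.16 without its replicate 3. The members of complex IV lay mostly above 0 (11 of 14, median 0.35), and those of complex I mostly below (27 of 43, median -0.09). An unadjusted p under 0.05 was reached by 11 members higher and by 1 lower (Ndufv2, -0.61), where 5.12% of all genes were higher and 3.71% lower. Groups did not overlap for 7 members higher (6.69% of all genes) and for 2 lower (6.07% of all genes), Ndufa9 and Atp5f1. These shares, 7.78% and 2.22%, were near or under those of all genes.

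Ndufb3 had the smallest p of the members, with a log2 fold change of 0.88 (SE 0.24, unadjusted p = 0.00205, adjusted p = 0.361, edgeR) between C13 with TDP-43 and C13 with sham. Sdhc followed, with 267.2, 332.1 and 412.8 CPM in C13 with TDP-43, against 240.3, 155.1 and 180.4 CPM in C13 with sham (0.81, SE 0.24). Atp5a1 had 2342, 3075 and 3493 CPM, against 1737, 950.0 and 1996 CPM (0.93, SE 0.28). None of the 3 overlapped between the groups. The Rieske protein gene Uqcrfs1 (0.65) and Cox6b1 (0.61), a subunit at the dimer interface of complex IV, did not overlap either. Without the pair of libraries that stood apart, Ndufb3 was at 0.70, Sdhc at 0.78 and Atp5a1 at 1.15, while 5 members were higher and 6 lower at an unadjusted p under 0.05. Without replicate 1 of C13 with TDP-43, 7 were higher and 8 lower, and without replicate 3 of C13 with sham, 5 and 7. Complex II was the sole complex whose sum did not overlap, at 863.0 to 1007 CPM in C13 with TDP-43, against 712.4 to 833.4 CPM in C13 with sham. Of its 8 members, 4 were above 0 and 4 below (median -0.008). Its highest member is Sdhc, whose values are given above, so this sum is not a separate result.

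Averaged over drugs, TDP-43 against sham gave 0 members higher and 2 lower at an unadjusted p under 0.05 in total RNA, where 2.39% of all genes were higher and 2.34% lower. The 2 were Ndufv2 (-0.45, SE 0.20) and Ndufa10 (-0.38, SE 0.17), and 10 members were lower without replicate 1 of C13 with TDP-43. Averaged over aggregates, C13 against DMSO gave 0 members, where 1.75% of all genes were higher and 2.33% lower, although 59 of 90 members (65.6%) were above 0, against 48.5% of all genes. Without replicate 3 of C13 with sham, 9 members were higher at that p. The interaction, the difference between the TDP-43 effects under C13 and under DMSO, had an unadjusted p under 0.05 for 10 members, all positive, where 4.94% of all genes were positive and 3.02% negative. Ndufb3 had 1.42 (SE 0.33, unadjusted p = 0.000696, adjusted p = 0.235, edgeR), Ndufa5 1.42 (SE 0.41) and Ndufb2 2.70 (SE 0.80). The remaining 7 were Ndufs5 (1.17), Atp5a1 (1.10), Ndufv3 (0.98), Sdhc (0.97), Uqcrfs1 (0.91), Cox6b1 (0.82) and Cox7a2l (0.74). Both libraries that stood apart belong to groups that enter the interaction with a negative sign. Without them, Ndufb3 had 1.21 (SE 0.35), 7 members were positive at an unadjusted p under 0.05, and the median of the members was -0.04 in place of 0.10. That median was -0.06 without replicate 1 of C13 with TDP-43. Without replicate 2 of C13 with sham, in which 45 of the members were at their highest, the count was 20. The share of all genes in that fit is not given, so 20 is not to be read as a stronger result.

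**Figure D4:**
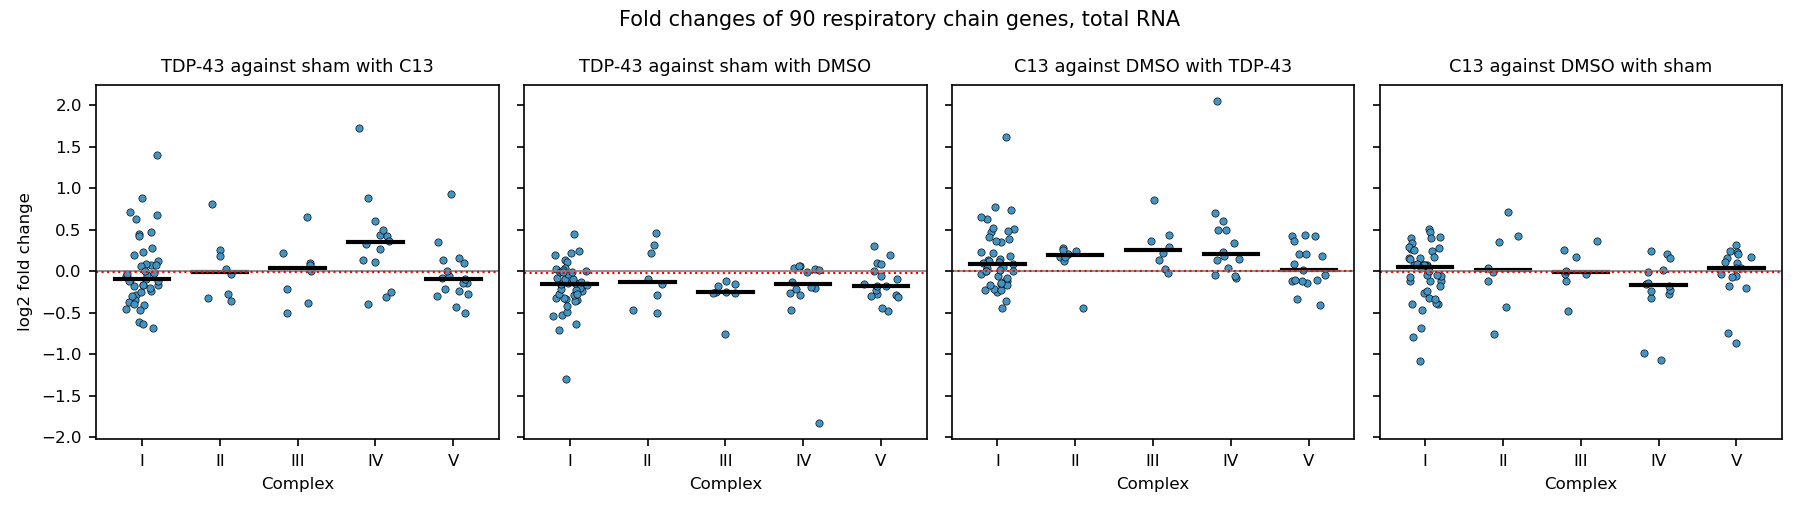
Log2 fold change (vertical axis) of each of the 90 members in total RNA by complex, in 4 comparisons. Points are genes, black bars medians per complex, and the dotted red line is the median of all genes. In C13 against DMSO with TDP-43 the medians run from 0.01 in complex V to 0.26 in complex III, and in TDP-43 against sham with DMSO all 5 are below 0.

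In nascent RNA, members tended to be lower with TDP-43 than with sham, by amounts small beside the spread. The medians of the ribosomal protein sets were also below 0, by amounts that differed between the arms. Reads sufficed to test 81 members. With C13, the median log2 fold change was -0.15, against 0.04 for all genes, and 51 members (63.0%) were below 0, against 48.7% of all genes. With DMSO, the median was -0.19, against -0.04, and 53 members (65.4%) were below 0, against 51.8%. Complex V lay below 0 in 14 of 16 members with C13 and in 13 of 16 with DMSO. With C13, an unadjusted p under 0.05 was reached by 4 members higher and 6 lower, where 5.19% of all genes were higher and 3.26% lower. With DMSO, it was reached by 0 higher and 1 lower, where 1.23% and 1.96% of all genes were. Cytosolic ribosomal protein genes had a median of -0.19 with DMSO (33.3% above 0) and -0.05 with C13 (44.9% above 0). Mitochondrial ones had -0.125 with DMSO (45.8% above 0) and -0.16 with C13 (44.4% above 0). Of the members, 34.6% were above 0 with DMSO and 37.0% with C13. The median of members with DMSO turned to 0.06 without replicate 2 of DMSO with sham. With C13 it ran from -0.41 (without replicate 1 of C13 with TDP-43) to -0.06 (without replicate 1 of C13 with sham), was -0.33 without the pair that stood apart and 0.02 with nascent reads scaled to the depth of total RNA. The summed nascent level did not overlap between C13 with TDP-43 and C13 with sham in complex I (3276 to 4514 CPM, against 4732 to 5195 CPM) and complex II (711.7 to 938.1 CPM, against 1121 to 1655 CPM), and overlapped in the other complexes and in all 5 with DMSO. Scaling within the nascent table removes any change shared by all genes, and these values are relative to it.

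Atp5o, the oligomycin-sensitivity subunit that ties the head of ATP synthase to its peripheral stalk (chr16:91925214-91931687), was the 1 member under this p in both arms. Its nascent level was 56.2, 106.1 and 71.3 CPM in C13 with TDP-43, against 300.9, 493.7 and 103.2 CPM in C13 with sham. It was 80.3, 101.4 and 55.9 CPM in DMSO with TDP-43, against 197.9, 215.4 and 230.2 CPM in DMSO with sham. With DMSO the groups did not overlap, and with C13 they did by 1 library. The log2 fold change was -1.69 averaged over drugs (SE 0.48, unadjusted p = 0.00244, adjusted p = 0.832, edgeR), and -1.76 without the libraries that stood apart. Its total level was 357.6, 297.9 and 225.4 CPM in C13 with TDP-43, against 345.7, 374.4 and 361.3 CPM in C13 with sham, and 235.9, 239.3 and 286.0 CPM in DMSO with TDP-43, against 338.1, 316.1 and 268.4 CPM in DMSO with sham. The total means were also lower with TDP-43 under both drugs, with overlap in each arm and a smaller log2 fold change (-0.29 averaged over drugs, SE 0.14, unadjusted p = 0.0546, edgeR). The gene overlaps others on both strands, and reads may be shared.

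Atp5e, the small ε subunit of the central stalk (chr2:174461072-174464105), had the smallest p of all nascent member values. Its nascent level was 18.3, 8.1 and 7.2 CPM in C13 with TDP-43, from 15, 10 and 6 reads. It was 170.7, 93.8 and 281.7 CPM in C13 with sham, 66.9, 92.9 and 271.7 CPM in DMSO with TDP-43, and 156.7, 140.7 and 34.1 CPM in DMSO with sham. Only C13 with TDP-43 was low in all 3 libraries, and it overlapped none of the other groups. The log2 fold change was -4.01 against C13 with sham (SE 0.95, unadjusted p = 0.000504, adjusted p = 0.486, edgeR) and -3.67 against DMSO with TDP-43 (SE 0.93). DESeq2 called both. Total Atp5e RNA was 184.6, 138.6 and 168.3 CPM in C13 with TDP-43, against 164.3, 241.3 and 105.5 CPM in C13 with sham, and the groups overlapped.

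Ndufv2 averaged 36.7 ± 13.3 nascent CPM in C13 with TDP-43 and 230.9 ± 278.0 in C13 with sham, against 82.6 ± 27.4 in DMSO with TDP-43 and 167.5 ± 26.2 in DMSO with sham (SD, n = 3 each). One library, replicate 3 of C13 with sham at 551.5 CPM, set the mean of its group, and without the libraries that stood apart the log2 fold change with C13 was -0.88 (unadjusted p = 0.246, edgeR) in place of -2.64. Ndufa6 had 215.0, 117.4 and 128.1 nascent CPM in C13 with TDP-43, against 426.0, 410.5 and 654.7 CPM in C13 with sham (log2 fold change -1.70, SE 0.63). Its groups did not overlap there. Atp5d (-1.26) and Ndufb6 (-3.67) were the other lower members. Ndufb6 rests on replicate 1 of C13 with sham, at 179.2 nascent CPM, against 3.54 and 15.9 CPM in the other libraries of that group, and without it the log2 fold change was -0.91. Members on the higher side were Ndufs5 (3.65), Ndufc2 (4.15), Ndufs7 (3.52) and Ndufab1 (4.33). The last 4 rest on 0 to 8 reads in each C13 with sham library, and their sizes depend on the fit. Reads of Ndufs5 came in multiples of 3 and those of Ndufs7 and Ndufb6 in multiples of 2.

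**Figure D5:**
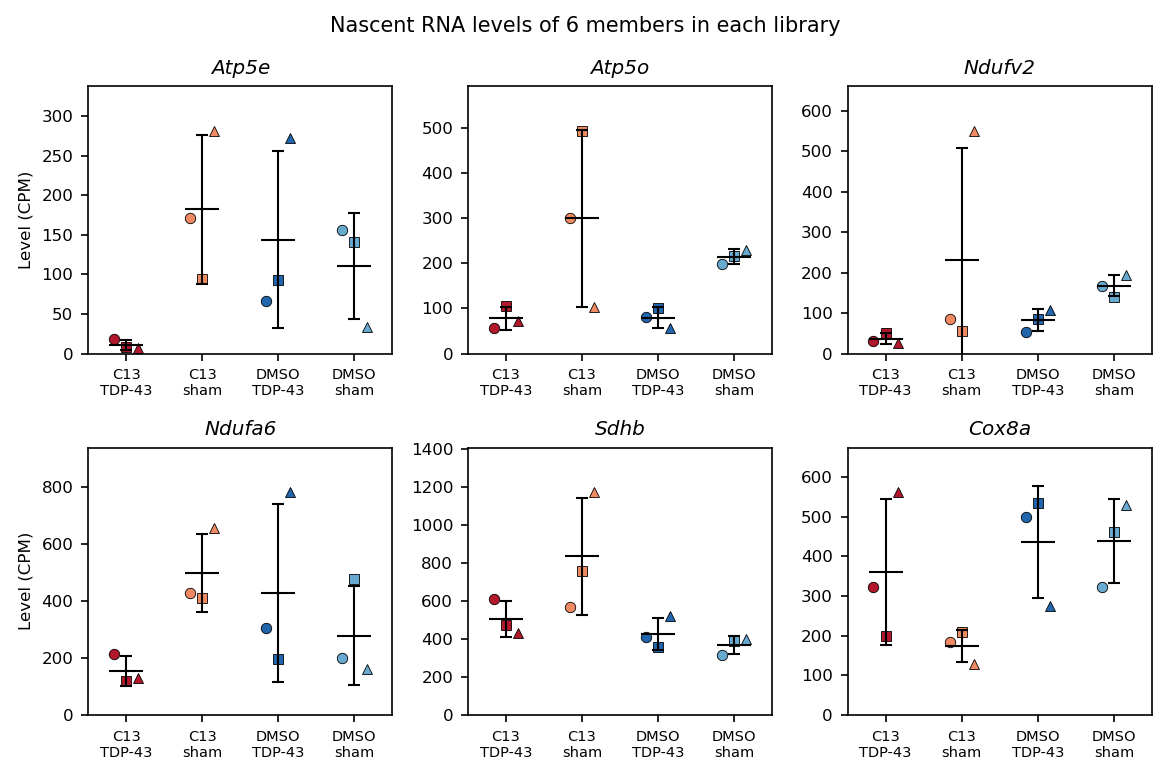
Nascent RNA level (CPM, vertical axes from 0) of Atp5e, Atp5o, Ndufv2, Ndufa6, Sdhb and Cox8a in each library, with mean ± SD (n = 3 per group) and replicates 1, 2 and 3 as circles, squares and triangles. Atp5e lies between 7.2 and 18.3 CPM in C13 with TDP-43 and at 34.1 CPM or more in the other 9 libraries, and Atp5o is lower with TDP-43 than with sham under both drugs on average.

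Averaged over drugs, TDP-43 against sham gave 3 nascent members lower and 0 higher at an unadjusted p under 0.05, where 2.39% and 3.21% of all genes were. These were Atp5o, Ndufv2 (-1.83) and Atp5e (-1.82). For C13 against DMSO, nascent members had a median log2 fold change of -0.11 with TDP-43, against 0.02 for all genes, and of 0.11 with sham, against -0.04. Neither sign was stable. With TDP-43 the median was 0.09 without replicate 1 of DMSO with TDP-43 and 0.04 with reads scaled to the depth of total RNA, and with sham it was -0.09 without the pair that stood apart. With TDP-43, 0 members were higher (2.44% of all genes) and 3 lower (2.15% of all genes) at an unadjusted p under 0.05, namely Atp5e, Ndufa6 (-1.47) and Ndufb6 (-3.49). With sham, 2 were higher (2.47% of all genes) and 3 lower (4.42% of all genes), or 1 and 6 without the pair.

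Sdhb was the higher member with most reads (chr4:140961203-140979193). It had 571.4, 760.9 and 1174 nascent CPM in C13 with sham, against 317.5, 387.8 and 402.4 CPM in DMSO with sham. The groups did not overlap, and the log2 fold change was 1.18 (SE 0.46, unadjusted p = 0.0188, adjusted p = 0.672, edgeR), or 0.79 without the libraries that stood apart. In the groups with TDP-43 it had 612.0, 476.1 and 432.6 CPM with C13, against 409.9, 355.9 and 520.3 CPM with DMSO, which overlapped. Cox8a was lower with C13 than with DMSO under sham, at 184.3, 208.8 and 129.0 CPM, against 322.5, 462.2 and 530.4 CPM (log2 fold change -1.33, SE 0.54). Ndufa3 (1.94), Ndufs7 (-3.93) and Ndufc2 (-4.03) were the others. Averaged over aggregates, C13 against DMSO gave Sdhb (0.71), Atp5e (-1.48) and Cox8a (-0.80), that is 1 higher and 2 lower, where 2.4% and 3.56% of all genes were. The nascent interaction gave 2 members positive (4.63% of all genes), Ndufs5 and Ndufs7, and 4 negative (2.95% of all genes), Atp5e (-4.39), Ndufa6 (-2.31), Ndufa3 (-3.03) and Ndufb6 (-5.10). Without the pair that stood apart these counts were 4 and 1, and Ndufb6 had -2.34 without replicate 1 of C13 with sham. An unadjusted p under 0.05 was reached by 13 members in a nascent comparison, 17 in a total comparison and 3 in both. The same overlap was not counted over all genes, so these counts do not tell whether nascent and total RNA differ in the members they name.

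Genes of the pathway outside the symbol rule gave no call either. Cytochrome c and other electron-transfer genes (6 listed) went both ways. In total RNA, Cycs, cytochrome c itself, was higher in C13 with TDP-43 than in DMSO with TDP-43 (log2 fold change 0.67, SE 0.25, unadjusted p = 0.0180, adjusted p = 0.833, edgeR). Mean levels were also higher for Coq10b and Etfb, but lower for Cyc1 (98.6 against 103.7 CPM), Etfa and Etfdh. For TDP-43 against sham with C13, Cycs (0.57), Cyc1 (-0.47) and Etfb (-0.54) had an unadjusted p under 0.05. Of 41 assembly and expression factors, 40 were tested in total RNA. For C13 against DMSO with TDP-43, 28 of the 40 were above 0, against 49.6% of all genes. An unadjusted p under 0.05 was reached by 2, where 411 of 11827 genes were higher and 296 lower. These were Lrpprc, which stabilises mitochondrial mRNAs (0.81), and Atpif1, the inhibitor of ATP synthase (0.54). Under sham, the copper chaperone Cox17 was lower with C13 (-0.69).

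Of 14 regulators, 13 were tested in total RNA and 9 in nascent RNA. In total RNA, Tfam, the packaging factor of mitochondrial DNA, averaged 21.6 ± 12.5 CPM in C13 with sham and 44.2 ± 16.2 CPM in DMSO with sham (log2 fold change -1.03, SE 0.39), and Gabpb1, a subunit of GABP, 11.3 ± 6.7 and 25.8 ± 6.3 CPM (-1.20, SE 0.40). Both missed the adjusted threshold, at 0.801 each (edgeR). In nascent RNA, Esrra, which encodes ERRα, averaged 110.9 ± 79.9 CPM in C13 with TDP-43 and 9.36 ± 6.98 CPM in DMSO with TDP-43 (3.51, SE 1.08, adjusted p = 0.990, edgeR), while its total level was 29.2 ± 3.0 and 40.1 ± 16.2 CPM. Nrf1 had 34.8 ± 46.2 nascent CPM in C13 with TDP-43 and 27.7 ± 32.7 CPM in DMSO with TDP-43. The coactivator gene Ppargc1a had 0 reads in every library, while its relatives Pprc1 and Ppargc1b averaged 1216 and 143.6 total reads.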

How the data were processed

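Per the labels' protocols, SIM-A9 RNA was treated with iodoacetamide, which makes 4-thiouridine read as T-to-C changes, and sequenced as QuantSeq 3′ mRNA libraries. The authors deposited 2 tables of read counts per gene, nascent (reads with conversions) and total, mapped to GRCm38, as named in the submitters' processing notes. Which software aligned and counted the reads, with which gene models, and how many conversions made a read nascent are details not given in the sources. Counts were used as deposited, with 0 columns left out. Low-count genes were removed by filterByExpr, and edgeR 4.0.16 quasi-likelihood tests (R 4.3.3, TMM within each table) were fitted to 4 group means over 12 libraries, with Benjamini-Hochberg adjustment over 11827 total or 7078 nascent genes and a threshold of 0.05. Replicates of each group differed beyond sampling noise. The tests were also run on simulated counts. The outcome is not given here, so it does not tell how small a change would have been called. The nascent share is nascent reads as percent of total reads. Alternatives were DESeq2 1.42.0, its size factors, no filter, a replicate block, each library left out, other library sizes and, added after seeing the data, leaving out the pair of libraries that stood apart. Members named are those with an unadjusted p under 0.05, those without overlap, and the extremes of level and nascent share, and other genes shown with their values were chosen after these were seen. The members and lists were chosen with earlier results of these data known. The values of 1 member are not reported here on their own.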

Additional observations from a re-analysis of the deposited data

How the results depend on the processing

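All 1297 values of named members kept their direction over the alternatives run, and 14 passed the adjusted threshold. These values had been picked by an unadjusted p under 0.05 in the same libraries. A change of sign was therefore unlikely from the start, and the count is no check of them. Medians over all members were not picked in this way, and some of them changed sign. With DESeq2, 1 member was called in each of 5 comparisons: Atp5e in nascent RNA for TDP-43 against sham with C13, C13 against DMSO with TDP-43 and the interaction, and Ndufb3 in total RNA for TDP-43 against sham with C13 and the interaction. Without the filter, members called in total RNA were 1 for TDP-43 against sham with DMSO, 4 with C13, 1 for C13 against DMSO with TDP-43, 2 with sham and 3 for the interaction, Ndufb2 among them each time. Scaling nascent reads to the depth of total RNA moved the members' median log2 fold change to -1.094 for TDP-43 against sham with DMSO, -1.017 for C13 against DMSO with sham, -0.456 and -0.567 for the averaged TDP-43 and C13 comparisons, and 1.038 for the interaction, whose median was 0.1471 without the filter. Subunits alone summed to 744.5 CPM in complex II, and division by the common factor gave 4877 CPM in complex IV and 5573 CPM in complex V. Without the pair of libraries that stood apart, members without overlap were 10 lower for TDP-43 against sham with C13, 4 lower for C13 against DMSO with TDP-43 and 10 higher with sham. Leaving out 1 library each gave nascent medians of -0.2215 to 0.132 for C13 against DMSO with sham and -0.3278 to 0.1924 for the interaction, and a nascent share of 1.734% to 2.295%. It gave 20 to 29 members higher and 2 to 14 lower without overlap for C13 against DMSO with TDP-43, 2 to 12 and 3 to 17 with sham, 7 to 21 and 2 to 17 for TDP-43 against sham with C13, and 3 to 10 and 14 to 31 with DMSO. With 2 libraries in a group, non-overlap is also more frequent among all genes. Counts with libraries left out, 1 or the pair, thus cannot be set against shares of all genes from 12 libraries. A higher count among them is no stronger result. Between groups, libraries of the same replicate number correlated at -0.0292 to 0.126 in total RNA (median 0.022) and -0.0322 to 0.0585 in nascent RNA (median 0.0109). For unlike numbers the medians were -0.00938 and -0.0105. The labels state no shared day or culture, and these small values cannot settle whether there was one. A fit with the replicate block called 0 members in every comparison. The cause of these shifts was not tested. Nascent reads limit the nascent values, since 25 members had 0 in at least 1 library.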
